A study of Danio rerio with 6 samples.

Results

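AP-1, Myc and immediate early genes were examined in whole zebrafish embryos in which Ovo1, a zinc finger transcription factor gene, was targeted by a morpholino. The set is fosab, jun, atf3, mycb and myca, with junba, junbb, jund, fosl2, egr1 and ier2a added as relatives. Members were chosen by gene symbol, with differences between morphants and controls on these same arrays already known. Every difference between the groups given for a member is therefore a description, without a test. Of the 11 genes, 10 had a probe set named with their symbol alone, and jund was not analysed here. These 10 genes had 17 of the 15502 probe sets analysed, out of 8793 named genes.

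The 3 Ovo1 morphant samples were AB strain embryos given the Ovo1 morpholino, an antisense oligomer, and their genotype is labelled Ovo1 morphant, sox10(7.2):gfp. The 3 control samples were AB strain embryos labelled wild type and control. Both groups were whole embryos at 12 h after fertilisation, the 6-somite stage, when the design text places the first visible defects of the neural crest in morphants. The design text gives both groups the sox10(7.2):gfp transgene, a green fluorescent protein reporter, while the labels give it for morphants only, and the labels do not say whether controls were injected. RNA of each sample was hybridised to 1 Affymetrix array, and no source gives the number of clutches behind each group, so the spread between arrays may be technical.

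AP-1 is a family of dimers made from Fos, Jun and ATF proteins, which pair through a leucine zipper and bind DNA through a basic region. Many Fos, Jun, Egr and Ier genes, though not all, are immediate early genes. Growth factors, stress and injury switch such genes on within minutes, without new protein synthesis, and their transcripts are short-lived. Myc proteins pair with Max, bind E-box sequences and promote ribosome production and cell growth, and myc genes respond early to the same signals.

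The median probe set intensity ran from 132.73 to 154.08 over the arrays, and precision is limited by there being 3 arrays per group. The labelled tissue was checked with markers of 9 cell types of the embryo. Of somite, neural plate, notochord, epidermal and neural crest markers, all 19 measured genes lay above the array's 25th percentile of intensity on all 6 arrays. The summed level of 4 leukocyte markers, cells that can be rich in immediate early transcripts, was 633 to 1030.4 in morphants, against 1570.2 to 2188 in controls. None of these 4 markers read 0 and 2 of them lay above the 25th percentile on every array. Summed neural crest markers were also lower, at 3697 to 3955 in morphants, against 4813 to 5230.0 in controls, as were neural plate markers, at 5590.4 to 6849 in morphants, against 7410.0 to 7666 in controls. Summed somite markers were at 5219 to 6224 in morphants, against 6248 to 6355 in controls. All these sums are of deposited intensities without normalization. The somite gap is small beside the range of array medians, and no difference is read from it. The 1 measured hatching gland marker was higher, at 811 to 958 in morphants, against 567 to 649 in controls. The sums of the other 4 lists overlapped between the groups. Taken singly, 3 of 4 neural plate and 1 of 4 each of neural crest, leukocyte and epidermal markers were called lower, as defined below. The hatching gland marker was called higher and no other marker was called. Over all named genes 3.57% were called lower and 3.23% higher. The ratio of the 3′ to the 5′ GAPDH control probe set, a measure of RNA integrity, was 1.01, 2.62 and 2.55 in morphants 1, 2 and 3, against 0.53, 0.683 and 1.13 in controls 1, 2 and 3. The same ratio for acta1 was high on every array and overlapped between the groups. It was 19.18, 22.09 and 21.25 in morphants 1, 2 and 3, against 19.69, 15.89 and 19.14 in controls 1, 2 and 3. The part of these shifts in the values below was not tested. In whole embryos, fewer cells expressing a gene and less RNA per cell cannot be told apart.

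Values below are the deposited intensities on a linear scale, and differences are log2, morphant minus control, ± SE with n = 3 per group, after quantile normalization and with 16 added to each intensity. The brightest probe set of a gene is the one with the highest mean of these log2 values over the 6 arrays. A probe set is called where the Benjamini-Hochberg adjusted p from limma over all probe sets is under 0.05. Unless a block is named, SEs, calls and p values do not pair the arrays by replicate number. Among the 17 member probe sets, 10 were called, all of them higher in morphants, where 2.59% of all probe sets were called higher and 3.12% lower. No member probe set was called lower by limma, and 0 were lower at an unadjusted p under 0.05. The called probe sets belong to 5 genes, fosab, jun, atf3, mycb and fosl2. Nothing is read from this share, since 5 member genes were chosen for their values on that contrast. The others were added as relatives with those values known. The count was 12 without Ovo1 morphant replicate 1, 6 without Ovo1 morphant replicate 3 and 5 without any other single array. Calls over all probe sets moved likewise, from 886 with all arrays to 1713, 447 and 269 to 492 in these fits. Over the 17 probe sets the median log2 difference was 0.64, against a median of −0.0014 over all probe sets. With the brightest probe set of each gene it was 0.58 over members, against 0.007 over all named genes. The choice of members bears on these medians too, and nothing is read from them.

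**Figure D1:**
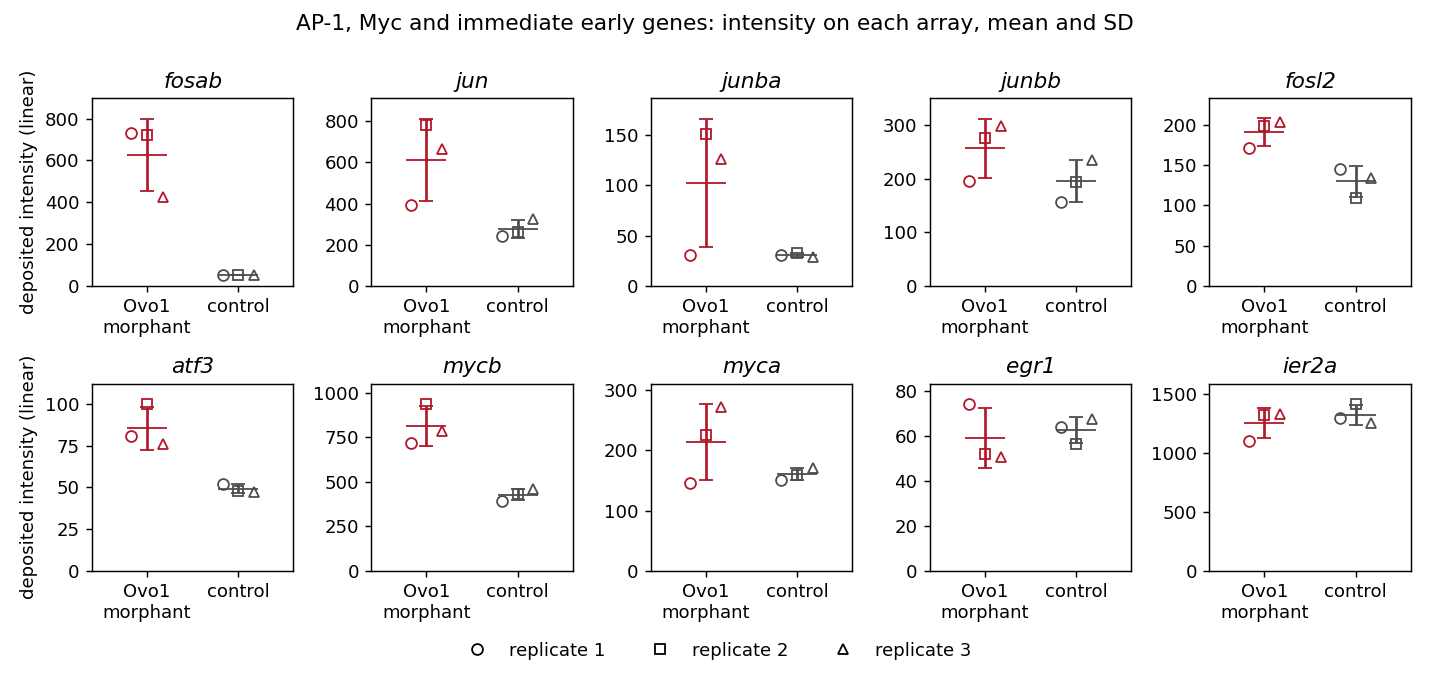
Deposited intensity (linear axis from 0) of the brightest probe set of each of the 10 genes on the 3 Ovo1 morphant and 3 control arrays. Marker shapes give the replicate number, horizontal lines the mean and bars the SD (n = 3). In fosab, jun, fosl2, atf3 and mycb all morphants lie above all controls. In junba morphant 1 lies with the controls at 30.4, and in junbb, myca, egr1 and ier2a the groups overlap.

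Of the Fos genes, fosab had by far the largest difference. The gene encodes a zebrafish homologue of c-Fos, which binds DNA only when paired with another protein, such as a Jun protein. Its brightest probe set read 734, 720.4 and 426 in morphants 1, 2 and 3, against 53.3, 51.7 and 49.8 in controls 1, 2 and 3. The lowest morphant was thus several times above the highest control, and the controls were close to one another. The log2 difference was 3.22 ± 0.21, or 9.31-fold. This fold depends on the added constant, at 11.7-fold when 1 was added and 5.87-fold when 64 was added. All 4 fosab probe sets showed the difference, at 2.79 to 3.38, and count as 1 gene. The dimmest read 486, 442 and 259 in morphants, against 37.9, 44.1 and 42.9 in controls. Morphant 3 was the lowest morphant in all 4 sets. When arrays were left out one at a time the difference of the brightest set lay between 3.07 and 3.48, with all 4 sets called in every fit.

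The other Fos gene, fosl2, encodes the Fos-related antigen Fra-2, which binds Jun but lacks the strong activation domain of c-Fos. Its brightest probe set read 172, 198 and 204 in morphants, against 146, 109 and 135 in controls. The groups did not overlap, and the log2 difference was 0.52 ± 0.12. A second set read 76.3, 86.8 and 89.3 in morphants, against 56.4, 44.1 and 60.3 in controls, with a difference of 0.54 ± 0.12. The third set lay below the 25th percentile on all 6 arrays and was not called, at 0.24 ± 0.10. Both fosl2 calls ended on leaving out any 1 array other than Ovo1 morphant replicate 1, while the difference of the brightest set stayed between 0.46 and 0.60. They ended as well with the intensities as deposited, and that of the brightest set also with median centring, at 0.52, and with 64 added, at 0.41.

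Among the Jun genes, jun and junba had the largest differences. In jun, junba and junbb alike morphant 1 was the lowest morphant, as it was in 40.3% of all probe sets. The gene jun encodes c-Jun, which is activated by Jun N-terminal kinases and binds DNA as a homodimer or with Fos. Its brightest set read 393, 781 and 667 in morphants, against 240.4, 263 and 324 in controls. The difference was 1.08 ± 0.21, and morphant 1 lay closer to the highest control than to the other morphants. The second set read 152, 293 and 274 in morphants, against 82.6, 102 and 125 in controls, also at 1.08 ± 0.22. Both sets were called with all arrays and without Ovo1 morphant replicate 1, but not without any of the other 5 arrays. The difference of the brightest set was 0.91 when Ovo1 morphant replicate 2 was left out, and 1.33 when Ovo1 morphant replicate 1 was.

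Of the JunB genes, which in mammals often oppose c-Jun in growth control, junba had the widest spread between morphants on the log2 scale of all members, with an SD of 1.01. It read 30.4, 151 and 126 in morphants 1, 2 and 3, against 30.4, 32.2 and 28.8 in controls. Morphants 2 and 3 were well above the controls and morphant 1 was among them. The difference of 1.13 ± 0.41 was not called, and it depends on morphant 1: without that array it was 1.73 and called, and leaving out Ovo1 morphant replicate 2 gave 0.78. The difference was 1.41 when 1 was added and 0.72 when 64 was. On the 4 arrays where it was low, junba lay below the 25th percentile of intensity. Its paralogue junbb read 195, 276 and 299 in morphants, against 156, 193 and 235 in controls. These groups overlapped, and the difference of 0.37 ± 0.17 was not called.

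Arrays of equal replicate number were treated as pairs because their deviations from the group mean correlated, as given below. The sample titles give the number alone and do not state a pairing. The paired differences of junbb were nearly equal, at 0.37, 0.37 and 0.38 in pairs 1, 2 and 3. Those of junba were 0.003, 1.75 and 1.64. With the replicate number as a block, junbb and junba were both called, which made 12 called member probe sets of 7 genes, where 8.82% of all probe sets were called higher with the block. Of the 17 probe sets, 11 had all 3 morphants above all 3 controls, 0 had all 3 below and 6 overlapped. Over the array 12.4% of probe sets had all morphants above and 13.5% all morphants below.

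**Figure D2:**
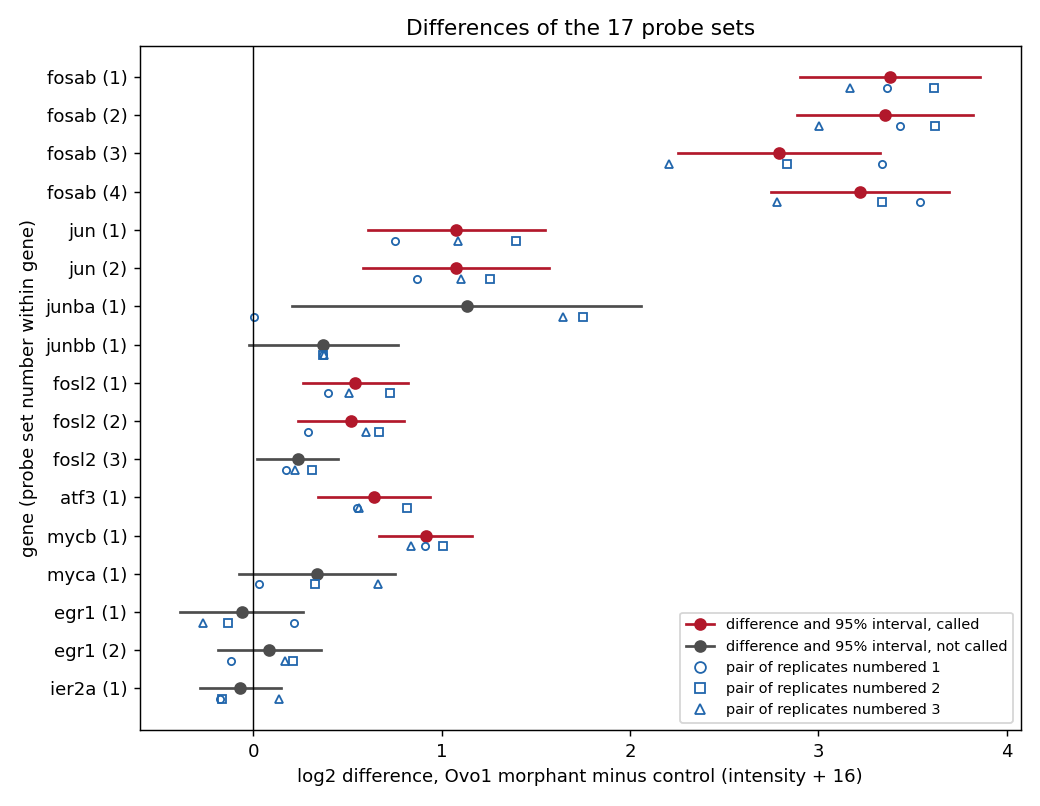
Log2 difference, Ovo1 morphant minus control, of each of the 17 probe sets (filled points) with its 95% interval from limma, and the difference within each pair of equal replicate number (open markers). Red sets were called and grey sets were not. The 4 fosab sets lie between 2.79 and 3.38, the pairs of junba range from 0.003 to 1.75, and the 3 pairs of junbb coincide.

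The bZIP gene atf3 encodes a stress-induced protein that pairs with Jun and, as a homodimer, represses transcription. It read 80.6, 100.2 and 75.9 in morphants, against 52.3, 48.1 and 47.1 in controls. All morphants exceeded all controls. The difference was 0.64 ± 0.13, a change of 1.56-fold. Its call ended without Ovo1 morphant replicate 2 or any 1 of the 3 controls. Because intensities are low, the size depends on the added constant, with 0.79 when 1 was added and 0.40 when 64 was added.

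The 2 Myc genes differed in how evenly they stood above controls. For mycb, a zebrafish homologue of c-Myc, intensities were 717, 939 and 782 in morphants, against 394, 431 and 459.8 in controls. The lowest morphant stood well clear of the highest control. The difference was 0.92 ± 0.11, or 1.89-fold, and lay between 0.84 and 0.97 without each array in turn, called each time. Its paralogue myca read 146, 225 and 272 in morphants, against 151, 159.7 and 170.3 in controls. In intensity, morphant 1 lay below all 3 controls and the other morphants above them. After normalization morphant 1 lay among the controls, with a log2 value of 7.402 against 7.372 in control 1. The difference of 0.34 ± 0.18 was not called, with or without the block, and it was called at 0.54 without Ovo1 morphant replicate 1.

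The immediate early genes egr1 and ier2a had values in overlapping groups. The zinc finger factor gene egr1, which serum and growth factors induce together with fos through serum response factor, read 74.2, 51.8 and 50.6 in morphants, against 63.9, 56.3 and 67.2 in controls. Its difference was −0.06 ± 0.14, with a 95% interval of −0.39 to 0.27. The second egr1 set lay below the 25th percentile on all 6 arrays, at 0.09 ± 0.12. For ier2a, whose product is a nuclear protein induced early by growth factors, intensities were 1103, 1323 and 1331 in morphants, against 1291, 1417 and 1255 in controls. Its difference was −0.07 ± 0.10, with a 95% interval of −0.29 to 0.15.

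Across the 17 member probe sets, log2 values mostly spread more between morphants than between controls. The median SD of log2 values was 0.25 over the 3 morphants and 0.11 over the 3 controls for the 17 member sets, against 0.15 and 0.13 for all probe sets. The SD was larger in morphants for 14 of the 17 member sets and for 58.0% of all probe sets. The sets are not separate genes, since fosab has 4 of them, fosl2 3, and jun and egr1 2 each. Control intensities of fosab, atf3 and junba were low, where the added constant narrows the log2 spread. With 1 added the member medians were 0.39 over morphants and 0.16 over controls, and with 64 added 0.21 and 0.07. The part of low intensity and of the choice of members in this spread was not tested. Morphant 1 was the lowest morphant in 11 member sets, morphant 3 in 6 and morphant 2 in 0, against 40.3%, 33.9% and 25.8% of all probe sets. The 6 sets lowest in morphant 3 include the 4 of fosab and that of atf3.

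The members differed in which morphant stood lowest. Relative to the control mean, the log2 value of morphant 1 was 3.55 in fosab, 0.58 in jun, −0.02 in junba and −0.06 in myca, while morphant 2 stood at 3.41, 1.42, 1.84 and 0.42 in the same genes. Genes outside the set showed either order. The heat shock gene hsp70.3 read 252, 1952 and 718 in morphants, against 66.2, 48.8 and 21.7 in controls, so that it too was lowest in morphant 1 among morphants. The growth arrest gene gadd45aa read 583, 762 and 416 in morphants, against 17.7, 7.5 and 24.8 in controls, and was lowest in morphant 3. Morphant 1 also had the lowest GAPDH 3′ to 5′ ratio of the morphants, at 1.01, and the part of that in jun and junba was not tested.

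**Figure D3:**
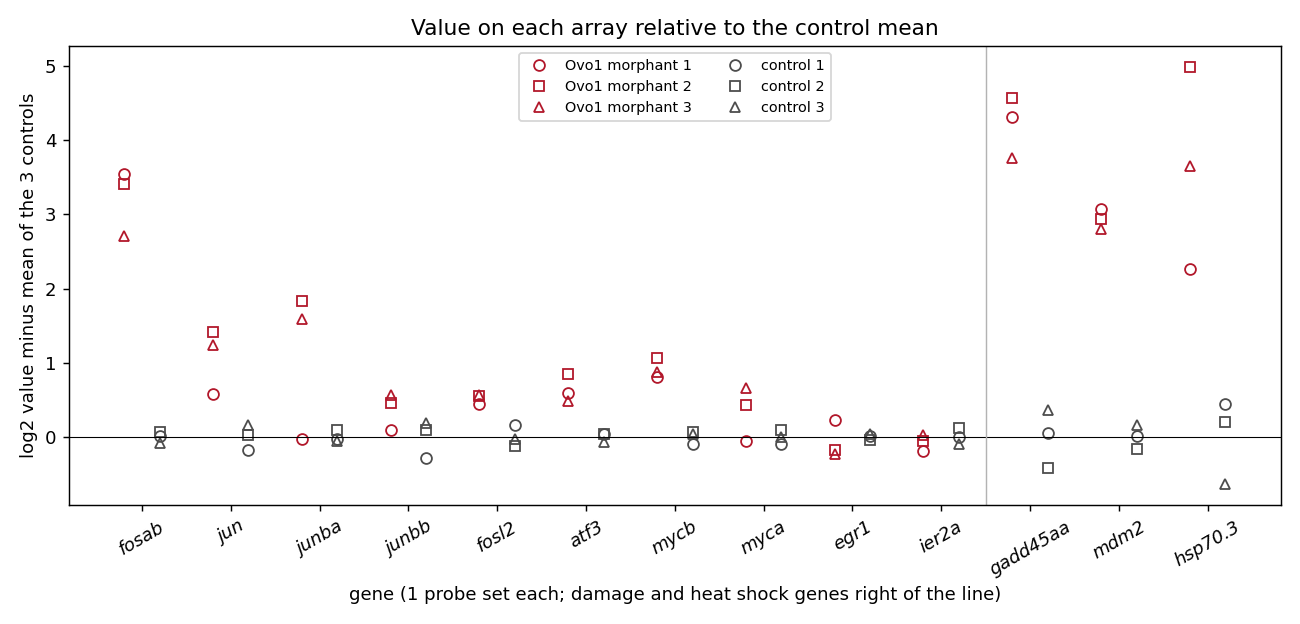
Normalized log2 value on each array minus the mean of the 3 controls, for the brightest probe set of the 10 genes and, right of the line, of gadd45aa, mdm2 and hsp70.3. Red markers are morphants, grey markers are controls and shapes give the replicate number. Morphant 1 (circle) is the lowest morphant in jun, junba, junbb, fosl2, mycb, myca, ier2a and hsp70.3. Morphant 3 (triangle) is the lowest in fosab, atf3, egr1, gadd45aa and mdm2. Some gaps are small, as in mycb (0.81 in morphant 1, 0.87 in morphant 3) and atf3 (0.49 in morphant 3, 0.59 in morphant 1).

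The genes most like a member over the 6 arrays were found among 8783 other named genes, by the Euclidean distance between log2 profiles from which the gene's own mean was taken. This distance includes the difference between the groups, which was known when members were chosen. It can be small only where that difference is of like size in both genes. Nearest to fosab were foxo3b, a forkhead factor gene (distance 0.51), phlda3, an inhibitor of Akt signalling (0.63), casp8, an apoptosis protease (0.65), the Wnt agonist rspo1 (0.66) and mdm2, a ubiquitin ligase for p53 (0.67). The foxo3b set read 1978, 1820.2 and 1432 in morphants, against 203, 139 and 207 in controls. The nearest other member, jun, stood at a distance of 2.85 from fosab, with a log2 difference between the groups of 1.08 against 3.22 in fosab. Nearest to jun were psat1, an enzyme of serine synthesis (0.21), tcima (0.24), ahsa1a, an activator of Hsp90 (0.25), si:ch211-215a10.4 (0.26) and ywhag2, a 14-3-3 protein gene (0.30). In psat1 the intensities were 557, 1305 and 1059 in morphants, against 381, 475 and 516 in controls. Nearest to mycb were tspan18a (0.13), zgc:112052 (0.15), cd44a (0.17), kcmf1 (0.21) and egln1b, an oxygen-sensing prolyl hydroxylase gene (0.24), and cd44a read 48.5, 56.7 and 53.4 in morphants, against 21.9, 25.2 and 22.1 in controls. These likenesses were searched for over the same arrays and carry no test. The distances were taken with the main added constant only, and those of dim genes depend on it. With 1 and 64 added the group difference was 1.18 and 0.43 in cd44a, against 0.94 and 0.85 in mycb. It was 4.15 and 2.06 in rspo1, against 3.55 and 2.55 in fosab. Some brighter neighbours moved less, such as zgc:112052 at 0.90 and 0.82.

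Of the other genes of these pathways, 6 lists were followed, with 1 probe set per gene. The calls were higher for 3.23% and lower for 3.57% of all named genes, whose median difference was 0.007. Under the replicate block these shares were 10.7% and 10.6%, and at an unadjusted p under 0.05 in limma they were 11.9% and 12%. Without Ovo1 morphant replicate 1, 830 probe sets over the array were called higher and 883 lower, against 402 and 484 with all arrays. Leaving out any other 1 array gave 269 to 492 called probe sets, so list counts in these fits move with the whole array.

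Of 28 measured bZIP relatives of AP-1, 3 were higher in morphants and 0 lower, with a list median of −0.04. At an unadjusted p under 0.05 in limma the counts were 4 and 2, and the fit with the block called 4 and 1. A single gene was called without Ovo1 morphant replicate 2 or 3, or without control replicate 2 or 3. The stress-responsive gene atf5a read 80.0, 93.0 and 94.6 in morphants, against 21.1, 19.9 and 39.4 in controls. That is 1.34 ± 0.17 on the log2 scale (limma adjusted p = 0.00338), called whichever array was left out, with 1.79 when 1 was added and 0.77 when 64 was. The gene of the inflammation-linked factor C/EBP beta, cebpb, differed by 0.53 ± 0.11 (limma adjusted p = 0.0309) and creb3l2, a membrane-bound factor gene of the secretory pathway, by 0.43 ± 0.10 (0.0444). Their calls were lost when 5 and 4 of the 6 arrays were left out singly (limma adjusted p up to 0.133 and 0.192), and with the intensities as deposited or median-centred. The atf4 genes, main effectors of the integrated stress response, did not pass, with atf4a at −0.21 ± 0.08 and atf4b at −0.08 ± 0.08 (limma adjusted p = 0.167 and 0.648). In atf4a all morphants lay below all controls, as in 13.5% of all probe sets, and the unadjusted 95% interval was −0.38 to −0.03. Of the closest relatives of the members fosaa, fosb, fosl1a, egr3 and ier2b were not analysed here.

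Of 12 measured genes of the Myc and Max network, 0 were called by limma in either direction, with 2 higher and 1 lower at an unadjusted p under 0.05 and 1 and 1 called with the block. The list median was −0.12. The Myc paralogue mych read 734, 942 and 1003 in morphants, against 1041, 1119.9 and 1053 in controls, all morphants below all controls. Its difference of −0.25 ± 0.11 had a limma adjusted p of 0.256, with a 95% interval of −0.50 to 0.01. The N-Myc gene mycn stood at 0.13 ± 0.09 and max, the shared partner of Myc proteins, at −0.03 ± 0.06 (limma adjusted p = 0.464 and 0.853).

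Of 59 measured other immediate early genes, 5 were higher, 1 was lower and 53 were not called, with a median of 0.11. At an unadjusted p under 0.05 in limma 16 were higher and 3 lower, and 12 and 3 were called with the block. The antiproliferative gene btg1 read 1798, 1899 and 1670.4 in morphants, against 1084, 913 and 1006 in controls (0.84 ± 0.09, limma adjusted p = 0.00155). Its relative btg2 differed by 0.28 ± 0.07 (limma adjusted p = 0.0453), while a second btg2 set did not pass, at 0.13 ± 0.14 (0.70). A difference of 0.49 ± 0.09 was found in plk3, a stress-responsive kinase gene (limma adjusted p = 0.0175). The clock gene per2 was higher by 0.83 ± 0.17 (limma adjusted p = 0.0263), with a second set at 0.52 ± 0.11 (0.0362), and ier5 by 0.30 ± 0.07 (0.0408). The gene that was lower, ifrd1, read 132, 142 and 155 in morphants, against 273, 316 and 296 in controls (−0.96 ± 0.12, limma adjusted p = 0.00338). Of these 6 genes btg1 and ifrd1 were called in every fit that left out 1 array, and the others were not (limma adjusted p up to 0.201). The btg2 and ier5 calls also ended with the intensities as deposited, with median centring and with eBayes without trend. The list had 12 called genes without Ovo1 morphant replicate 1, of which 10 were higher and 2 lower. It had 3 without control replicate 1 and 2 without any other single array. The MAP kinase phosphatase gene dusp1 stood at 0.04 ± 0.10 and the hindbrain gene egr2b at −0.004 ± 0.09 (limma adjusted p = 0.882 and 0.989).

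Of 23 measured MAP kinase and serum response factor regulators, the 1 that was called higher was rps6ka3a, which encodes an Rsk kinase acting below Erk, and 0 were lower. The median was −0.09, with 2 higher and 2 lower at an unadjusted p under 0.05 in limma, and 2 and 2 called with the block. The rps6ka3a set read 642, 623 and 826 in morphants, against 275, 274 and 357 in controls (1.17 ± 0.14, limma adjusted p = 0.00252), and was called whichever array was left out. Without Ovo1 morphant replicate 1 the list had 2 called genes. The serum response factor gene srfa read 26.6, 25.3 and 20.6 in morphants, against 23.6, 24.1 and 22.2 in controls, at 0.04 ± 0.10 (limma adjusted p = 0.878).

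Of 25 measured genes known as AP-1 targets in mammals, 2 were higher and 0 lower, with a median of 0.09. At an unadjusted p under 0.05 in limma 6 were higher and 2 lower, and with the block 6 and 2 were called. Without Ovo1 morphant replicate 1 the list had 4 called genes, 3 higher and 1 lower. The matrix protease gene mmp2 read 634, 647 and 853 in morphants, against 173, 111 and 188 in controls (2.10 ± 0.17, limma adjusted p = 0.000284). The hyaluronan receptor gene cd44a differed by 0.83 ± 0.11 (limma adjusted p = 0.00426), with 1.18 when 1 was added and 0.43 when 64 was. Both mmp2 and cd44a were called whichever array was left out. The cd44a set lay below the 25th percentile of intensity on the 3 control arrays, and a filter on dim probe sets left it out.

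Of 54 measured growth genes known as Myc targets, 2 were higher and 2 lower, with a median of −0.02. At an unadjusted p under 0.05 in limma 8 were higher and 9 lower, and with the block 9 and 9 were called. The higher genes encode mitochondrial proteins, the co-chaperonin hspe1 (0.77 ± 0.13, limma adjusted p = 0.0107) and the prohibitin phb2b (0.71 ± 0.17, 0.0468). The lower genes were shmt2, an enzyme of mitochondrial one-carbon metabolism, and pa2g4b, a growth regulator. The shmt2 set read 265, 295 and 361 in morphants, against 543, 581 and 699 in controls (−0.94 ± 0.13, limma adjusted p = 0.00494). A second shmt2 set did not pass, at −0.52 ± 0.17 (limma adjusted p = 0.130), and was called with the block (0.0497). The pa2g4b difference was −0.37 ± 0.07 (limma adjusted p = 0.0172). Of these 4 calls that of shmt2 alone held whichever array was left out. The phb2b and pa2g4b calls ended with eBayes without trend, and that of phb2b also with the intensities as deposited and with 1 added. The list had 13 called genes without Ovo1 morphant replicate 1, of which 4 were higher and 9 lower. It had 1 without Ovo1 morphant replicate 2 and 2 without control replicate 2 or 3.

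**Figure D4:**
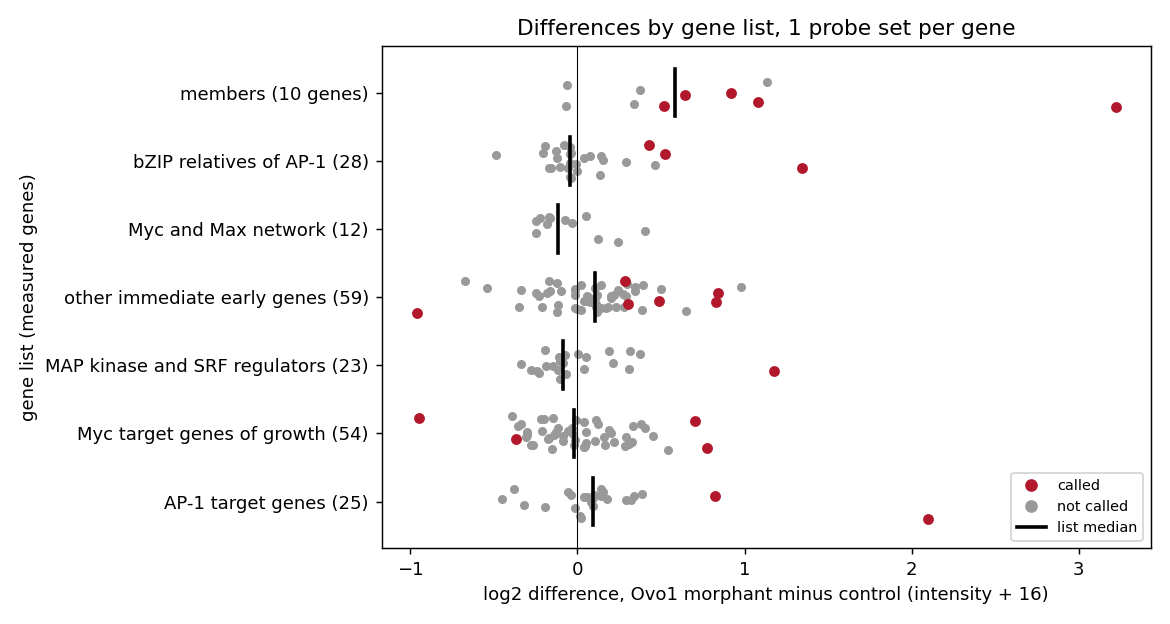
Log2 difference, Ovo1 morphant minus control, of every measured gene in the 10-gene set and in the 6 other lists, 1 probe set per gene. Red points were called, grey points were not and black bars are list medians. Of the members, 5 genes were chosen for their values on this contrast and the others were added as relatives. The 6 other lists have medians between −0.12 and 0.11.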

How the data were processed

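Total RNA of 3 Ovo1 morphant and 3 control samples was measured on Affymetrix zebrafish arrays. The values are linear intensities per probe set as deposited. Per the submitters' processing notes the authors used PLIER in Affymetrix Expression Console 1.1. Its settings were not given in the sources used. Between 7 and 21 probe sets per array read 0.

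Of 15617 probe sets, 115 control sets were left out and the others fitted without a filter. Array medians of log2(intensity + 16) ranged over 0.194, so quantile normalization was applied. The model was limma 3.58.1 in R 4.3.3 (lmFit, eBayes with trend). Alternatives were unnormalized or median-centred values, constants of 1 and 64, a dim filter, eBayes without trend or robust, the replicate block, mean probe sets and leaving out each array. Its steps were run on simulated data, where 84% to 98% of log2 changes of 1 or 2 were recovered, with 14 false calls. The simulated noise was independent between arrays and lacked the correlation between equal replicate numbers given below. Figures used matplotlib 3.10.9.

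The platform annotation, updated through gene identifiers, gave 10795 probe sets 1 symbol, 135 several and 4572 none. In the lists a gene was represented by its brightest probe set. No probe set was named for an ovo gene, so the knockdown was not checked at the transcript level.

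Members and lists were chosen with earlier results of these data known. Named genes were all members, up to 5 called genes with the smallest p per list, a fixed group of relatives, and the 5 nearest profiles to fosab, jun and mycb. The genes gadd45aa, mdm2 and hsp70.3 were named for comparison.

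Deviations from the group mean correlated between morphant and control arrays of equal number, at r = 0.578, 0.461 and 0.542 over probe sets (not independent replicates). As each exceeded 0.1, equal numbers were treated as pairs in the paired differences and in the fit with the replicate block. The main fit had no block, so its SEs, calls and adjusted p values leave this pairing out.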

Additional observations from a re-analysis of the deposited data

How the results depend on the processing

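Under settings that left out no array, 348 values of single genes were recomputed, of which 327 kept their direction and side of the threshold, 19 lost a call and 2 gained one. With the replicate block the calls were 2891 probe sets over the array against 886 without it, 5 of the bZIP relatives against 3, 2 of the Myc and Max network against 0 (limma), 15 of the other immediate early genes against 6, 4 of the MAP kinase and serum response factor regulators against 1, 18 of the Myc targets against 4 and 8 of the AP-1 targets against 2. The member count was 12 with the block and 10 without it. Calls among the bZIP relatives numbered 1 with the intensities as deposited and 1 with median centring, and those among Myc targets numbered 2 without the intensity trend. The cause was not tested. With each array left out in turn, without the block, calls ran from 269 to 1713 over the array, 5 to 12 among member probe sets, 1 to 4 among bZIP relatives, 0 to 0 in the Myc and Max network, 2 to 12 among other immediate early genes, 1 to 2 among kinase and serum response factor regulators, 1 to 13 among Myc targets and 2 to 4 among AP-1 targets. Outside the Myc and Max network each highest count came without Ovo1 morphant replicate 1, and the lowest count over the array without control replicate 3. With an array left out, directions turned in 4 differences near 0 among the member probe sets and the brightest sets of the genes named from the lists. That of egr1 ran from −0.205 to 0.019, that of its second set from −0.022 to 0.175, that of egr2b from −0.041 to 0.059 (0.042 without control replicate 2) and that of dusp1 from −0.020 to 0.128. The srfa set and 1 set each of fosl2 and egr1 lay below the 25th percentile on all 6 arrays, with little signal in which a lower level could be seen. The junba set was below it in the controls, yet stood well above them in morphants 2 and 3.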
